A study of Mus musculus with 24 samples.

Results

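The L1Md names are the mouse LINE-1 entries of the deposited table of transposable element (TE) counts, chosen as every name that starts with L1Md. There were 6 of them among 1146 TE names: L1Md_F2, L1Md_A, L1Md_F3, L1Md_T, L1Md_F and L1Md_Gf. No measured value was used to choose them, but earlier results of these data were known when they were chosen. Each name sums the reads of many genomic copies, so a name has no single position, and the copies' positions, lengths and sequences were not analysed here.

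The study sequenced total RNA from transplanted 2153L tumours, a genetically engineered mouse model of triple-negative breast cancer with a p53 knockout. Fragments grew in cleared mammary fat pads of female BALB/c mice, which were 6 to 8 weeks old at transplantation, and the mice were randomised to treatment at a tumour volume of about 100 mm3. Every tumour gave an input library of its RNA and a J2 library of RNA precipitated with J2, an antibody that binds double-stranded RNA. There were 12 tumours and 24 libraries, in 8 groups of 3.

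The vehicle groups received no drug. The ORIN1001 groups received ORIN1001, an inhibitor of the RNase of IRE1α, at 150 mg/kg by daily gavage. The docetaxel groups received docetaxel, a drug that stabilises microtubules, at 10 mg/kg by weekly injection. The combination groups received both drugs, and mice given a single drug also received vehicle. All groups share the p53 knockout, the transplanted tumour line and the host strain, and the samples are bulk tumour, so fewer cells with L1Md RNA and less L1Md RNA per cell cannot be told apart.

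LINE-1 elements copy themselves through an RNA that encodes an RNA-binding protein and an enzyme that nicks DNA and reverse transcribes the RNA into the nick. In the mouse, full-length L1Md elements start with a promoter of repeated monomers, whose type gives the A, T, Gf and F names. The A, T and Gf types hold the copies known to be mobile in laboratory mice, and the F types are older relatives. Normal cells keep these elements silent through DNA methylation and histone marks, and sense and antisense LINE-1 transcripts are a known source of double-stranded RNA.

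Gene counts ranged from 3.27 to 63.3 M in the inputs and from 2.54 to 18.7 M in the J2 libraries, and TE counts over all libraries from 0.449 to 8.14 M. The input of docetaxel tumour 3 stood apart: ribosomal RNA loci took 67.1% of its gene counts, while they took between 0.431% and 2.86% elsewhere. In the J2 libraries that share was 13.8% for docetaxel tumour 3 and 37.9%, 56.6% and 22.7% for combination tumours 1, 2 and 3, against 1.25% to 6.02% in the other 8. Mammary epithelial markers had counts for all 8 of 8 genes in every library, and made up 0.202% to 0.306% of the gene counts of the inputs other than docetaxel tumour 3, where they made up 0.0472%.

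In the inputs the L1Md names together took a nearly constant part of the TE counts. The share was 1.36%, 1.25% and 1.34% in vehicle tumours 1, 2 and 3. It was 1.26%, 1.31% and 1.26% with ORIN1001. With docetaxel it was 1.20%, 1.31% and 1.19%, and with the combination 1.31%, 1.13% and 1.20%. The 4 input groups overlapped, and the whole range over 12 inputs ran from 1.13% to 1.36%.

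As a share of all gene plus TE counts, the input values were spread more widely. Vehicle tumours stood at 0.185%, 0.137% and 0.207%, and ORIN1001 tumours at 0.193%, 0.160% and 0.149%. Docetaxel tumours stood at 0.133%, 0.141% and 0.465%, and combination tumours at 0.257%, 0.332% and 0.256%. All 3 combination inputs lay above all 3 vehicle inputs, for the sum and for each of the 6 names, and so did 848 of 1054 TE names (80.5%). The TE counts as a whole made up 19.6%, 29.5% and 21.4% of the combination inputs against 13.6%, 11.0% and 15.4% of the vehicle inputs, and 39.2% of the input of docetaxel tumour 3. Nuclear RNAs such as Malat1 and Neat1 made up 0.992%, 1.81% and 1.02% of gene counts in the combination inputs and 0.633%, 0.454% and 0.982% in vehicle, and their part in the L1Md values was not tested. The summed levels of other cell types’ markers in the same inputs were as follows, with no marker at 0. The 6 T cell markers took 0.00189% to 0.00337% of gene counts in the combination and 0.000686% to 0.000904% in vehicle, and 5 of 6 had an unadjusted p under 0.05 (median log2 fold change 1.58, none called by edgeR). The 6 neutrophil markers took 0.00256% to 0.00416% and 0.00576% to 0.0110%, with 4 of 6 at an unadjusted p under 0.05 (median −3.08, none called). The 6 macrophage markers took 0.0437% to 0.0642% and 0.0303% to 0.0407%, and the 7 fibroblast markers 0.0301% to 0.0766% and 0.0270% to 0.0277%, with 1 of each list at an unadjusted p under 0.05. The 6 endothelial markers took 0.00371% to 0.00554% and 0.00314% to 0.00485%, which overlap. Over all genes, 4563 of 17695 had an unadjusted p under 0.05 in the inputs of the combination against vehicle. The part of cell make-up in the L1Md values was not tested. Within the TE counts the order turned round for 2 of the 6 names: L1Md_T and L1Md_A were lower in all 3 combination inputs than in all 3 vehicle inputs, as were 154 of 1054 TE names (14.6%).

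The J2 libraries fell apart into low and high values. Vehicle J2 libraries held 1.67%, 1.45% and 1.71% of their TE counts in L1Md names, and ORIN1001 J2 libraries 1.54%, 1.18% and 0.943%. Docetaxel J2 libraries held 1.47%, 1.34% and 24.4%, and combination J2 libraries 3.86%, 23.1% and 10.8%. So 4 J2 libraries, that of docetaxel tumour 3 and all 3 of the combination, were higher than the other 8, which ran from 0.943% to 1.71%. These steps were far wider than the counting error, since the widest 95% Wilson interval of the share was 0.130 percentage points. That interval covers counting error only.

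The same 4 J2 libraries were the highest on the scale of gene plus TE counts. Vehicle stood at 0.349%, 0.258% and 0.404%, ORIN1001 at 0.221%, 0.225% and 0.113%, docetaxel at 0.260%, 0.253% and 4.88%, and the combination at 0.581%, 6.38% and 2.06%. The order of the 8 group means on the TE scale ran from the combination J2 libraries (12.6% ± 9.73, SD, n = 3) and docetaxel J2 libraries (9.07% ± 13.3) through vehicle J2 libraries (1.61% ± 0.142) and the inputs of vehicle (1.32% ± 0.0584), ORIN1001 (1.28% ± 0.0269) and docetaxel (1.23% ± 0.0682) to the ORIN1001 J2 libraries (1.22% ± 0.298) and the combination inputs (1.21% ± 0.0944). Of these neighbours, vehicle J2 libraries and vehicle inputs were the only pair whose libraries did not overlap.

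**Figure D1:**
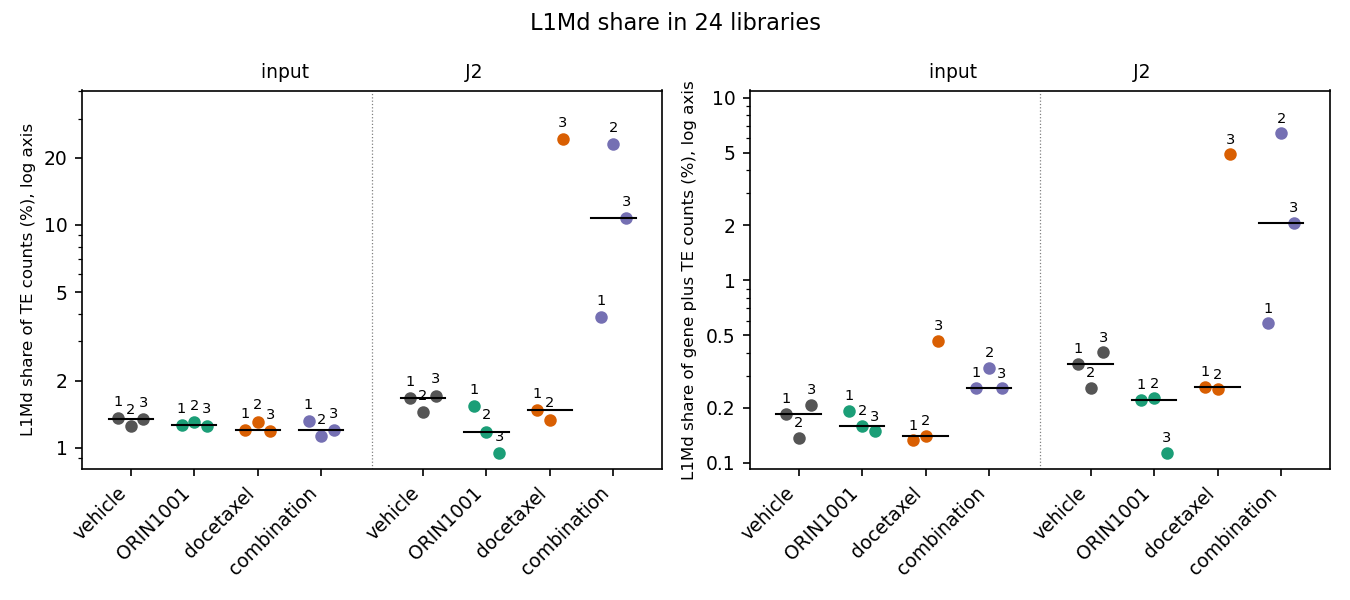
Share of TE counts (left) and of gene plus TE counts (right) in the 6 L1Md names, in percent on log axes, for the 24 libraries. Points are libraries numbered by tumour and bars are group medians. The inputs lie between 1.13% and 1.36% of TE counts, and the J2 libraries of docetaxel tumour 3 and of the combination lie between 3.86% and 24.4%.

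Within a tumour, the ratio of the J2 share to the input share showed the same division on the TE scale. On the TE scale it was 1.23, 1.16 and 1.28 in vehicle tumours 1, 2 and 3, 1.22, 0.90 and 0.75 with ORIN1001, 1.23, 1.02 and 20.6 with docetaxel, and 2.94, 20.5 and 8.97 with the combination. J2 was above input in 10 of 12 tumours, with a mean log2 ratio of 1.20 ± 1.76 (SD, n = 12) and a median of 0.29. On the scale of gene plus TE counts J2 was above input in 11 of 12 tumours, with a mean log2 ratio of 1.39 ± 1.40 and a median of 0.94. The ratio there was 1.89, 1.88 and 1.95 in vehicle and 1.15, 1.41 and 0.76 with ORIN1001. It was 1.95, 1.80 and 10.5 with docetaxel, and 2.26, 19.2 and 8.02 with the combination. Combination tumour 1 thus lay only a little above the vehicle tumours on that scale. The mean lay far above the median on the TE scale because 4 tumours held the large ratios.

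L1Md_F2 was the most abundant name by count and changed most in absolute share. In the inputs it ran from 0.567% to 0.679% of TE counts, with a median of 0.621%. In the J2 libraries it was 0.794%, 0.673% and 0.932% in vehicle, 0.812%, 0.648% and 0.463% with ORIN1001, 0.714%, 0.657% and 15.1% with docetaxel, and 2.23%, 14.4% and 6.20% with the combination. In docetaxel tumour 3 and combination tumour 2 this one name thus supplied more than 14% of all TE counts, with 252934 and 257426 counts. Its J2 to input ratio was 26.3 and 24.01 in those tumours, 9.75 in combination tumour 3 and 3.29 in combination tumour 1, against 0.763 to 1.37 in the other 8.

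L1Md_A, the name of an element type with mobile copies, followed the same course. Its J2 share of TE counts was 0.212%, 0.192% and 0.217% in vehicle, 0.178%, 0.137% and 0.111% with ORIN1001, 0.191%, 0.176% and 3.65% with docetaxel, and 0.489%, 3.10% and 1.56% with the combination. The inputs ran from 0.135% to 0.168%. The ratio of J2 to input was 26.8 in docetaxel tumour 3 and 3.13, 23.0 and 10.3 in combination tumours 1, 2 and 3. L1Md_F3 made up 0.139%, 0.119% and 0.140% of TE counts in the vehicle J2 libraries, 0.126%, 0.112% and 0.0932% with ORIN1001, 0.127%, 0.114% and 2.51% with docetaxel, and 0.319%, 2.35% and 0.969% with the combination. Its ratios were 26.0 in docetaxel tumour 3 and 2.52, 21.4 and 8.65 in the combination, and 0.737 to 1.08 in the other 8, where J2 was above input in only 4.

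L1Md_T, the name of another type with mobile copies, had smaller ratios in the same libraries. Its J2 share was 0.479%, 0.428% and 0.388% in vehicle, 0.385%, 0.261% and 0.253% with ORIN1001, 0.404%, 0.362% and 3.01% with docetaxel, and 0.760%, 3.14% and 1.89% with the combination. The ratio to input was 8.66 in docetaxel tumour 3 and 2.31, 12.0 and 6.76 in the combination, against 0.729 to 1.29 elsewhere. L1Md_F had ratios of 3.87 in docetaxel tumour 3 and 2.51, 6.29 and 6.49 in the combination, against 0.838 to 1.59 elsewhere. These ratios are on the TE scale. On the scale of gene plus TE counts, L1Md_F had 2.45, 2.23 and 2.16 in vehicle. It had less in docetaxel tumour 3 (1.98) and combination tumour 1 (1.93), and more in combination tumours 2 and 3 (5.90 and 5.80). L1Md_T had 1.98, 1.86 and 1.73 in vehicle there, 4.43 in docetaxel tumour 3, and 1.78, 11.2 and 6.05 in the combination.

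L1Md_Gf had the fewest counts, from 105 to 1102 per library, and it was the only one of the 6 names above its input in all 12 tumours. Its ratio on the TE scale was 2.31, 2.25 and 2.04 in vehicle, 2.36, 1.26 and 1.12 with ORIN1001, 1.98, 1.37 and 3.20 with docetaxel, and 3.61, 5.02 and 7.16 with the combination. The vehicle tumours thus lay above 2 for this name, while the other 5 names stayed between 0.995 and 1.59 there. On the TE scale its highest ratio was in combination tumour 3, whereas the highest ratios of L1Md_F2, L1Md_A and L1Md_F3 were in docetaxel tumour 3. As a share of gene plus TE counts, the L1Md_Gf ratio was 3.55, 3.66 and 3.12 in vehicle. There docetaxel tumour 3 (1.64) and combination tumour 1 (2.78) lay below vehicle, while combination tumours 2 and 3 (4.71 and 6.40) lay above.

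**Figure D2:**
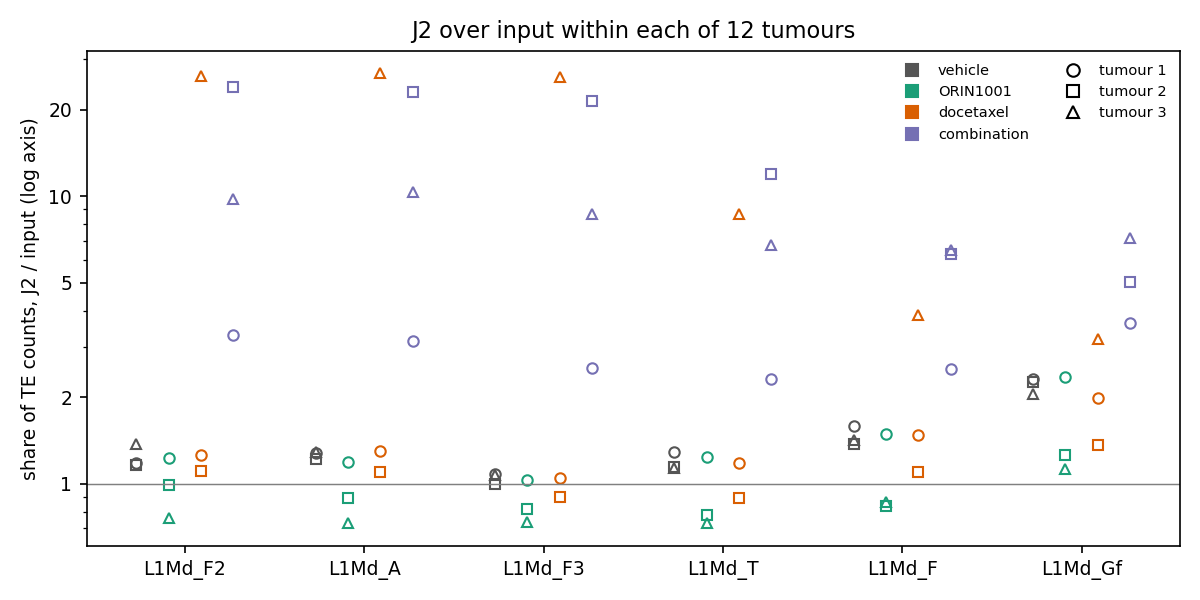
Ratio of the J2 share of TE counts to the input share, on a log axis, for each L1Md name in each of 12 tumours. Colours are treatments and symbols are tumour numbers. L1Md_Gf lies above 1 in every tumour, and L1Md_F2, L1Md_A and L1Md_F3 exceed 20 in docetaxel tumour 3 and combination tumour 2.

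The unequal changes altered the make-up of the L1Md counts. Over the 12 inputs L1Md_F2 made up 49.6% ± 2.61 (SD, n = 12) of them, L1Md_T 26.7% ± 2.57, L1Md_A 12.1% ± 0.357, L1Md_F3 9.64% ± 0.568, L1Md_F 1.36% ± 0.161 and L1Md_Gf 0.490% ± 0.0960. In the J2 library of docetaxel tumour 3 L1Md_F2 made up 61.9% and L1Md_T 12.4%, and in that of combination tumour 2 they made up 62.2% and 13.6%. L1Md_Gf fell to 0.118% and 0.132% of the L1Md counts in those libraries. These are shares of counts and are not scaled by the length of the elements, so they do not rank the names by number of transcripts.

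Tests of single names were made with edgeR's quasi-likelihood test on genes and TE names together, with Benjamini-Hochberg adjustment over all TE names tested and a threshold of 0.05. Averaged over the 4 treatments and with the tumour as a block, 6 of 6 L1Md names were higher in J2 than in input, against 46 of 1046 TE names (4.4%). The edgeR log2 fold change ± SE was 1.74 ± 0.27 for L1Md_Gf (adjusted p = 0.00452), 1.73 ± 0.31 for L1Md_F2 (adjusted p = 0.0086) and 1.72 ± 0.27 for L1Md_A (adjusted p = 0.00477). It was 1.51 ± 0.28 for L1Md_F3, 1.37 ± 0.25 for L1Md_F and 1.35 ± 0.26 for L1Md_T, with adjusted p of at most 0.0105. The median of the 6 was 1.62, beside −0.06 over all TE names. All 6 also passed with any 1 tumour left out, but none did without the tumour block. The calls over all TE names in those fits are not given here, so these counts do not set L1Md apart.

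Within treatments, only the combination gave calls. There 6 of 6 names were higher in J2 than in input, against 37 of 1046 TE names (3.54%). The edgeR log2 fold change was 3.91 ± 0.70 for L1Md_F2 and 3.91 ± 0.62 for L1Md_A, which is 15.0-fold for each. It was 3.68 ± 0.64 for L1Md_F3, 3.25 ± 0.57 for L1Md_T, 3.10 ± 0.55 for L1Md_Gf and 2.99 ± 0.52 for L1Md_F, with edgeR adjusted p from 0.00881 to 0.0091. The 6 names had a median of 3.46 while the median over all TE names was −1.13, and L1Md_F2, L1Md_A and L1Md_F3 ranked 5, 6 and 10 of 1046 by size. Without combination tumour 3 none of the 6 passed, at log2 fold changes of 2.82 to 3.97, and without combination tumour 2 the number was 4. Whether the other TE names lost their calls in the same fits is not given here.

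In vehicle tumours edgeR called 0 of 6 names and 0 of 1046 TE names (0%), although 4 of the 6 and 68 of the TE names had an unadjusted p under 0.05. The log2 fold changes there were 2.10 ± 0.52 for L1Md_Gf and from 1.03 to 1.50 for the other 5, beside a TE median of 0.99. DESeq2 called 1 of the 6 names and 9 TE names. Docetaxel tumour 3 is a library pair of another treatment, which enters only the estimate of spread, the scaling and the filter on low counts. Without it, 6 of 6 were called in vehicle tumours, as were 768 of 1052 TE names (73%). ORIN1001 and docetaxel tumours likewise gave no edgeR call, with L1Md medians of 0.37 and 0.92, with 0 and 2 of the 6 names at an unadjusted p under 0.05, and with 0 calls by DESeq2. Over the 1046 TE names, 29 and 30 had an unadjusted p under 0.05, and DESeq2 called 2 and 4. With TE scaling alone, the medians in vehicle and ORIN1001 tumours were 0.31 and 0.07.

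**Figure D3:**
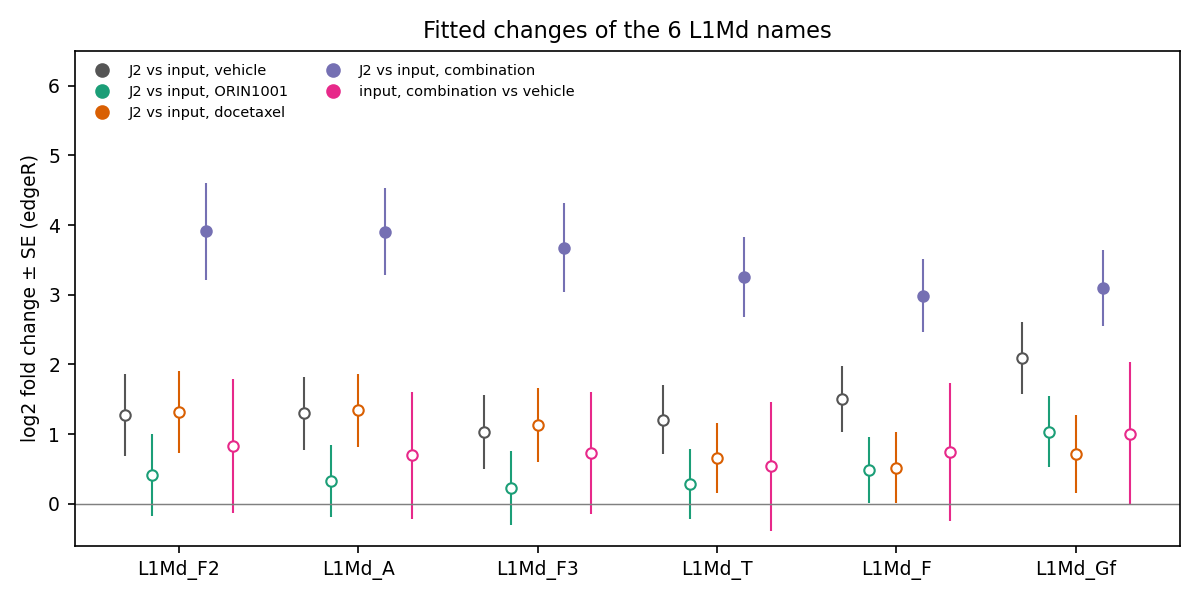
Log2 fold change with its SE from edgeR for the 6 L1Md names, in J2 against input for each treatment and in the inputs of the combination against vehicle. Filled points passed an adjusted p of 0.05. All 6 names are filled for the combination, between 2.99 and 3.91, and open elsewhere.

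Whether J2 enrichment differed between treatments was tested as a difference of the J2 coefficients. For the combination against vehicle the log2 difference was 2.65 ± 0.81 for L1Md_F3, 2.64 ± 0.89 for L1Md_F2, 2.61 ± 0.79 for L1Md_A, 2.04 ± 0.74 for L1Md_T, 1.48 ± 0.68 for L1Md_F and 1.00 ± 0.72 for L1Md_Gf. The edgeR adjusted p ran from 0.253 to 0.326, so 0 of 6 were called, as were 0 of 1046 TE names (0%). An unadjusted p under 0.05 was reached by 4 of the 6 and by 197 TE names, and DESeq2 called 3 of the 6 and 77 TE names. Without docetaxel tumour 3, all 6 were called with edgeR adjusted p from 0.00171 to 0.00954 at nearly unchanged differences, from 1.01 to 2.63. In that fit 46 of 1052 TE names (4.37%) were higher, and the median over all TE names was −2.01.

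Against the single drugs, the log2 differences in J2 enrichment had medians of 2.55 (combination against docetaxel) and 3.21 (combination against ORIN1001), with 0 of 6 called by edgeR, 6 of 6 at an unadjusted p under 0.05 in each, and 5 of 6 called by DESeq2 in each. Over the 1046 TE names, 78 and 85 had an unadjusted p under 0.05, edgeR called 3 and 1, and DESeq2 called 20 and 33. ORIN1001 against vehicle had a median of −0.94 and docetaxel against vehicle −0.25, with no call by edgeR or DESeq2 and no unadjusted p under 0.05. These comparisons share the vehicle or the combination tumours.

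Comparing J2 libraries directly, 5 of 6 names were higher in the combination than in vehicle, against 42 of 1012 TE names (4.15%). The edgeR log2 fold changes were 4.41 ± 1.30 for L1Md_F3, 4.22 ± 1.26 for L1Md_A, 3.27 ± 0.99 for L1Md_T, 2.53 ± 0.67 for L1Md_F and 2.13 ± 0.53 for L1Md_Gf, each with adjusted p = 0.0489. L1Md_F2 had the highest value, 4.44 ± 1.38, but missed the threshold (edgeR adjusted p = 0.0504). The median of the 6 was 3.74 and that of all TE names −1.04. These L1Md calls lay at the threshold: leaving out any of 9 single tumours, or adding the replicate number as a block, ended all of them. Whether the other TE names lost their calls in those fits is not given here. The libraries themselves did not overlap, with all 3 combination values above all 3 vehicle values for 6 of 6 names, both on the TE scale (65 of 1012 TE names, 6.42%) and on the scale of gene plus TE counts (36 of 1012, 3.56%).

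The 4 J2 libraries with high L1Md shares lay outside the range of the other 8 in gene counts and in the number of TE names. Their gene counts were 6.69 M for docetaxel tumour 3 and 2.54, 4.69 and 11.0 M for combination tumours 1, 2 and 3, against 12.3 to 18.7 M. Their TE names with at least 10 counts numbered 598, 647, 644 and 883, against 926 to 1022. Genes of the mitochondrial genome made up 2.10%, 0.405%, 2.56% and 0.835% of their gene counts, against 0.152% to 0.464%, so combination tumour 1 lay within that range. The part of depth, ribosomal RNA counts and mitochondrial RNA in the L1Md values was not tested. With ribosomal RNA loci left out of the denominator, the mean log2 ratio of J2 to input on the scale of gene plus TE counts was 1.50 ± 1.50 over the 12 tumours. Ribosomal RNA loci took 13.8% to 56.6% of gene counts in the 4 J2 libraries, against 1.25% to 6.02% in the other 8. Within the 4, combination tumour 1 had the second highest ribosomal share, the lowest L1Md share and the fewest gene counts.

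Other LINE-1 names did not all move with L1Md. The 4 L1_Mus names, other mouse-specific entries, had J2 to input ratios on the TE scale of 13.5 in docetaxel tumour 3 and 1.66, 12.5 and 5.04 in the combination, against 0.67 to 1.08 in the other 8 tumours. The 21 Lx names, a rodent LINE-1 group, had ratios of 1.25 in docetaxel tumour 3 and 0.58, 1.50 and 1.06 in the combination. In the other 8 tumours the Lx ratios ran from 0.68 to 1.11. The 95 remaining L1 names, which are mostly older, had ratios of 0.33 in docetaxel tumour 3 and 0.28, 0.28 and 0.39 in the combination, against 0.64 to 1.24 elsewhere. These remaining L1 names were lower in J2 than in input in 10 of 12 tumours on the TE scale. Their lowest ratios were in the 4 tumours with the highest L1Md ratios. The 25 IAP names, retrovirus-like elements that are also young in the mouse, had ratios of 1.36 in docetaxel tumour 3 and 1.03, 2.31 and 1.01 in the combination. Elsewhere the IAP ratios ran from 0.67 to 1.22.

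The edgeR fit of J2 against input in the combination gave the following counts and medians, in which Lx lay above IAP, whereas the summed IAP ratio was above that of Lx in combination tumours 1 and 2. Of the L1_Mus names 4 of 4 were higher with a median log2 fold change of 2.87, of the Lx names 3 of 21 with a median of 0.64, and of the IAP names 3 of 25 with a median of −0.52. Of the other L1 names 2 of 93 tested were higher and none was lower by edgeR's adjusted p, with a median of −1.76 and values from −5.42 to 2.14. No test of the difference between these groups of names was made.

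**Figure D4:**
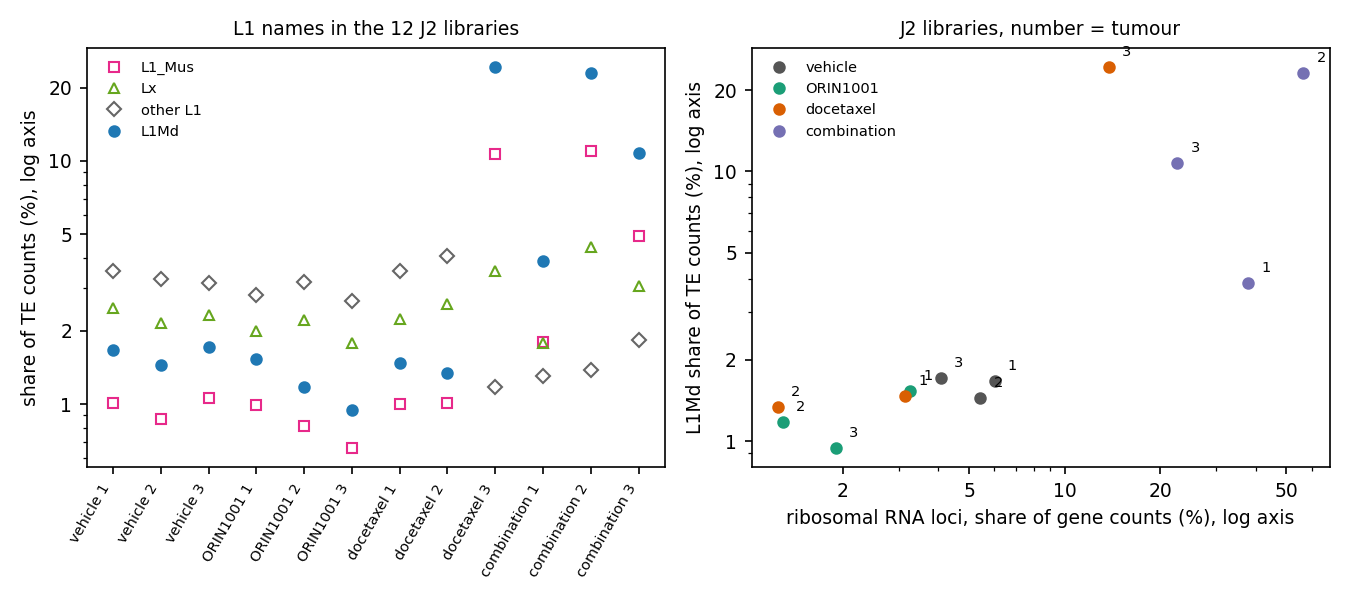
Left: share of TE counts, in percent on a log axis, of L1Md, L1_Mus, Lx and other L1 names in the 12 J2 libraries. Right: L1Md share of TE counts against the share of gene counts at ribosomal RNA loci, both in percent on log axes, with the tumour number beside each point. In docetaxel tumour 3 and the combination, L1Md stands above the other L1 names, which fall to between 1.18% and 1.83%, and the ribosomal share is 13.8% or more.

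In the inputs, no treatment changed an L1Md name by edgeR's adjusted p. For the combination against vehicle the log2 fold changes ran from 0.54 ± 0.92 for L1Md_T to 1.01 ± 1.03 for L1Md_Gf, with adjusted p from 0.525 to 0.638, and the call was 0 of 6 beside 0 of 1054 TE names (0%). None of the 6 and 24 of the TE names had an unadjusted p under 0.05, and DESeq2 gave the 6 names no p. The median of the 6, 0.74, was below the TE median of 1.09, and when TE counts alone set the scale the 6 values were negative, from −0.09 to −0.55. Without docetaxel tumour 3, 6 of 6 were called higher at a median of 0.70, as were 832 of 1062 TE names (78.3%) with a median of 1.06.

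Docetaxel against vehicle gave log2 fold changes of 2.34 to 3.26 in the inputs, with edgeR adjusted p = 0.0735 for each name and an unadjusted p under 0.05 for 6 of 6. Over all TE names the median was 2.39, and 661 of 1054 had an unadjusted p under 0.05. The L1Md values rested on docetaxel tumour 3, whose gene counts were mostly ribosomal: without it the values ran from −0.47 to −0.19, with adjusted p of at least 0.227. ORIN1001 against vehicle gave values of −0.17 to −0.0041 (adjusted p = 1.00) and no unadjusted p under 0.05. The interaction of the 2 drugs had a median of −1.80 (adjusted p = 0.61 for each name), which turned to 1.15 without docetaxel tumour 3, where 6 of 6 names were called, as were 826 of 1062 TE names in either direction.

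Other features whose level followed L1Md over the 12 inputs were found by Spearman correlation of log2 CPM (counts scaled by library size) with the summed L1Md CPM. The nearest of 813 TE names were IMPB_01, ORR1D1-int, Lx4B, Lx2B and ORR1E-int, each with rho = 1.00 and with Pearson r from 0.978 to 0.998. Among the nearest of 10791 genes were Nr6a1 (rho = 0.986) and Srcap, Leng8 and Snapc3 (rho = 0.965 each). These 12 points share their scaling with every TE name, and the input of docetaxel tumour 3 is the extreme of all of them. Over the 12 J2 libraries, a set looked at after the data were seen, the nearest TE names were LTRIS_Mm, IAPLTR1a_Mm, L1_Mus3, L1_Mus4 and L1_Mm, with rho from 0.965 to 1.00.

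Genes reported to silence or restrict LINE-1 (27 listed, 25 tested) and genes reported as LINE-1 cofactors or promoter factors (10 listed and tested) gave no call in the inputs of the combination against vehicle, where 280 of 17695 genes (1.58%) were called. There 7 of 25 and 2 of 10 had an unadjusted p under 0.05, and DESeq2 called 7 of the 35 together. Over all genes 4563 of 17695 had an unadjusted p under 0.05, and DESeq2 called 2391 of 17534. Against docetaxel the combination inputs were higher for Samhd1, which breaks down deoxynucleotides (chromosome 2, 157097534 to 157135096, GRCm38), among 1104 of 17695 genes called (6.24%). Samhd1 stood at 167 ± 7.06 CPM (SD, n = 3) in the combination, 71.3 ± 18.3 with docetaxel, 101 ± 16.3 with ORIN1001 and 90.7 ± 22.8 in vehicle. The edgeR log2 fold change was 1.21 ± 0.23 (adjusted p = 0.0261), or 1.02 without docetaxel tumour 3 (adjusted p = 0.0111), and the highest adjusted p over the alternatives was 0.0918.

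Against ORIN1001, 4 of the 35 listed genes were called in the combination inputs, among 1631 of 17695 genes (9.22%). Runx3, a transcription factor reported to bind a LINE-1 promoter (chromosome 4, 135120645 to 135177990), was at 27.2 ± 1.68 CPM against 11.2 ± 2.63 (edgeR log2 fold change 1.28 ± 0.25, adjusted p = 0.0265). Dnmt3b, a DNA methyltransferase (chromosome 2, 153649411 to 153687730), was at 16.5 ± 1.61 against 10.3 ± 0.495 CPM (0.67 ± 0.18, edgeR adjusted p = 0.0471). Sirt6, a deacetylase reported to help silence LINE-1 (chromosome 10, 81621787 to 81627792), was lower, at 12.8 ± 2.23 against 21.1 ± 0.767 CPM (−0.72 ± 0.17, edgeR adjusted p = 0.0343). Ercc1, part of a nuclease that limits LINE-1 insertion (chromosome 7, 19344067 to 19356524), was also lower, at 8.15 ± 1.27 against 19.2 ± 5.29 CPM (−1.23 ± 0.30, edgeR adjusted p = 0.0374). All 4 calls ended when any 1 ORIN1001 tumour, or combination tumour 2 or 3, was left out, with edgeR adjusted p of up to 0.171. Of 19 alternatives, Dnmt3b was called in 5, Ercc1 in 9, Sirt6 in 11 and Runx3 in 13.

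In the J2 libraries of the combination against vehicle, 9 of 25 silencing genes (5 higher, 4 lower) and 2 of 10 cofactors (both higher) were called, among 4061 of 15807 genes (25.7%). Trim28, a corepressor that recruits histone methylation to repeats (chromosome 7, 13024152 to 13031032), was higher by 1.60 ± 0.36 on the log2 scale (edgeR adjusted p = 0.0105) and was called under all 19 alternatives. Averaged over treatments, 11 of 25 silencing genes (7 higher, 4 lower) and 7 of 10 cofactors (2 higher, 5 lower) differed between J2 and input, beside 8878 of 17214 genes (51.6%). The list medians there were −0.09 and −0.28, and that of all genes was −0.06.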

How the data were processed

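The authors deposited 2 tables of raw read counts, with 53465 gene rows and 1146 TE names in 24 libraries. The tools named in the submitters' processing notes were STAR 2.7.3a, featureCounts 2.0.3 and fastp 0.23.2, with build mm10; how reads matching several copies, and strand, were handled is not given in the sources used here. Labels called the libraries stranded total RNA with ribosomal RNA depletion. Ribosomal RNA loci were Gm42418, Gm26917, AY036118, Rn18s-rs5 and like symbols. Symbols matched 53274 gene rows.

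Counts of genes and TE names were fitted jointly with edgeR 4.0.16 in R 4.3.3 (TMM scaling, filterByExpr with a minimum count of 10 and total of 15), in 3 fits: inputs by treatment, J2 libraries by treatment, and all libraries with a tumour block. Adjusted p-values were taken over TE names, and over genes for genes. The fitting code was also run on simulated counts, with the same spread for every feature and no differences between tumours. That run does not show how the fits behave at the spread of these data. DESeq2 1.42.0, other scalings, no filter, other adjustment, blocks and leaving out each tumour were alternatives. Shares were computed in Python 3.11.15.

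The pairing of input and J2 comes from the series' design; deviations from group means correlated above 0.1 in 10 of 12 tumours. Replicates of a group differed beyond sampling noise (chi-square per degree of freedom of at least 17.8), and labels call them biological replicates. The labels give no batch.

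All L1Md names were named. Of the listed LINE-1 genes up to 6 called in a comparison of treatments were named; which 6 was chosen after their values were seen: the 5 called in inputs, and Trim28. The members and lists were chosen with earlier results of these data known. Coordinates are from RefSeq's GRCm38 annotation.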

Additional observations from a re-analysis of the deposited data

How the results depend on the processing

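Higher L1Md counts in J2 than in input on average over treatments gave 6 calls with any 1 tumour left out, and 5 or 6 under other scalings, filter, test or adjustment. Counts of L1Md names called by edgeR otherwise depended on the setting, and the cause was not tested. Except where stated, the counts in this section stand without the calls over all TE names in the same setting. They therefore do not show whether L1Md differed from the other TE names. With no replicate block (J2 against input without pairing by tumour) the calls fell to 0 on average and 0 in the combination; with the replicate number as a replicate block, J2 libraries of the combination against vehicle gave 0, and TE scaling alone gave 0. Replicate numbers do not pair treatments: of 18 same-numbered pairs of inputs 5 correlated above 0.1, and of 18 J2 pairs 2.

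For the change of J2 enrichment, the calls were 2 (no filter), 5 (DESeq2), 5 (adjustment over genes and TE names) for the combination against docetaxel, 1 (TE scaling), 5, 5 and 5 for it against ORIN1001, and 3 (DESeq2) and 3 (joint adjustment) for it against vehicle. For J2 against input in vehicle they were 1 (no filter), 1 (DESeq2) and 2 (joint adjustment). In the inputs, TE scaling gave 1 for the combination against docetaxel, and no filter gave 6 for docetaxel against vehicle; DESeq2 gave the 6 names no p in any input comparison. In J2 libraries no filter gave 3 for docetaxel against vehicle.

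An alternative chosen after seeing the data left out the 3 tumours with a library under 5 M gene counts (docetaxel 3, combination 1 and 2). It kept a single combination tumour, so calls of the combination are not given. The change of enrichment of ORIN1001 against vehicle gave 1 call. J2 against input gave 6 in vehicle, 6 in docetaxel and 2 in ORIN1001. In the inputs, the median log2 fold change of the combination against docetaxel was 0.87, and that of the interaction was 0.88, both reversed. The calls over all TE names in this setting are not given here, so these counts do not set L1Md apart.

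Leaving out single tumours, the calls ranged from 0 to 6 for the 3 changes of enrichment of the combination, J2 against input in the combination (0 without combination 3) and in vehicle, the J2 libraries of the combination against vehicle, and in the inputs for the combination against vehicle, docetaxel and ORIN1001, for docetaxel against vehicle and for the interaction; from 0 to 3 for J2 in docetaxel; and from 0 to 1 for J2 in ORIN1001. The medians of the combination against docetaxel and of the interaction ranged from −2.45 to 1.08 and from −2.32 to 1.15 in the inputs. In the inputs, calls of the combination and of the interaction came only without docetaxel 3, and those of docetaxel against vehicle only without docetaxel 1 or 2. Without docetaxel 3, 78.3% of TE names were called higher in the inputs of the combination against vehicle. The share was 73% for J2 against input in vehicle, and 4.37% for the change of enrichment of the combination against vehicle.

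Of 35 listed genes, DESeq2 called 7, 4 and 10 in the inputs of the combination against vehicle, docetaxel and ORIN1001. Over all genes it called 2391, 2245 and 3401 of 17534. The replicate block gave 0 listed genes against docetaxel and 1 against ORIN1001, where no filter gave 1. Leaving out single tumours, the calls of listed genes ranged from 0 to 10, 0 to 6 and 0 to 14 in the same order of comparisons. In J2 libraries of the combination against vehicle they ranged from 3 to 17. Over all genes the main fits called 1.58%, 6.24% and 9.22% in those inputs and 25.7% in those J2 libraries. The shares over all genes with a tumour left out are not given here.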
